A study of Oryza sativa with 12 samples.

Results

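The 10 genes described here are phosphate starvation sensors, regulators and transporters of rice (Oryza sativa), taken by a list of locus identifiers from the 37960 genes of the deposited count table. They were 3 sensors (SPX1, SPX2 and SPX3), 2 regulators of transporter abundance (IPS1 and PHO2), the phosphate exporter PHO1;2, 3 phosphate importers (PT2, PT6 and PT8) and the membrane lipid enzyme MGD2. A reference gene table held 8 of these names at the place their locus identifier implies, and PHO2 and IPS1 are named as the choice of members names them.

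RNA-seq was done on leaves and roots of plants 1 month old, grown hydroponically in Kimura nutrient solution at 28 °C with 12 h of light, and no phosphate treatment is given in the labels. The 4 groups were f3h leaf, WT leaf, f3h root and WT root, with 3 libraries each, 12 in all. WT was ZH11, a cultivar named in the sample titles. The f3h line takes its name from flavanone 3-hydroxylase, which acts in flavonoid synthesis, and is labelled a knockdown in the sample labels and a CRISPR mutant in the design text; the targeted locus, and whether the libraries are of 1 line, are not stated. Whether replicate libraries are from different plants is not stated, so p-values measure only how far these libraries spread, which could be technical.

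As background, plants short of phosphate switch on a starvation programme through PHR transcription factors. SPX proteins bind inositol pyrophosphates, which report the phosphate status of the cell, and in that state hold PHR proteins away from their target genes. Targets of the programme in rice include several SPX genes themselves, IPS1, phosphate transporters of the PHT1 family and enzymes that replace membrane phospholipids with galactolipids. PHO2 works in the opposite direction, marking transporters for breakdown.

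Levels are in CPM, a gene's share of the counts of its library on a common scale, and errors of group means are SDs (n = 3). Libraries held 32314230 to 37821918 counts in f3h leaf, 31171931 to 35021116 in WT leaf, 23740780 to 27917598 in f3h root and 27317632 to 29687320 in WT root. WT leaf replicate 1 stood apart from its group, with a chi-square per degree of freedom of 57.5 and 61.1 against the other WT leaf libraries, where all other pairs of replicates gave 5.42 to 7.09. The 4 listed flavanone 3-hydroxylase loci, whose names the reference gene table does not hold, gave no single check of the labels. Os10g0536400 was higher in f3h leaf (85.3 ± 3.42 CPM) than in WT leaf (53.7 ± 3.21 CPM; edgeR quasi-likelihood adjusted p = 0.000267). In root that locus was not called (adjusted p = 0.351 by the same test). Os03g0122300 was lower in f3h leaf, at a log2 fold change of -0.55 ± 0.17 (SE, adjusted p = 0.0338 by the same test), and not called in root. Os04g0667200 was not tested in leaf and not called in root. Os04g0662600 had 0 counts in f3h root against 39 counts in WT root, at least 11.9-fold lower, with 2, 20 and 17 counts in the WT root libraries. The 14 leaf markers, photosynthesis genes, summed to 66428 to 69200 CPM in f3h leaf and 84723 to 96638 CPM in WT leaf; in f3h root they summed to 165 to 181 CPM and in WT root to 19.5 to 22.9 CPM, and none was at 0 in any library. All 13 of these that could be tested in root were called higher in f3h root. The 9 root markers summed to 10.97 to 14.6 CPM in f3h leaf and 12.0 to 18.6 CPM in WT leaf, with 3 or 4 of them at 0. In f3h root they summed to 3538 to 3579 CPM and in WT root to 3746 to 3896 CPM, and 6 of the 8 tested were called lower in f3h root.

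A gene was called changed between genotypes where the adjusted p of the edgeR quasi-likelihood test was under 0.05. In leaf, 7 of the 10 genes passed the filter on low counts; SPX1, PT8, IPS1 and MGD2 were higher in f3h, SPX2 was lower, and PHO2 and PHO1;2 were not called. Over all 22438 genes tested in leaf, 36.5% were called, 17.9% higher and 18.6% lower. In root, 9 passed the filter; SPX1, SPX2, PHO2, PHO1;2, PT2, PT6 and PT8 were lower in f3h, none was higher, and IPS1 and MGD2 were not called. Over all 24583 genes tested in root, 50.3% were called, 24.9% higher and 25.4% lower. The median log2 fold change of the tested members was 0.88 in leaf and -1.22 in root, where the medians over all genes tested were -0.02 and 0.01. IPS1 and MGD2 in leaf passed the filter through f3h leaf alone, and SPX2 in root through WT root alone. MGD2 in root passed because of the f3h root libraries, since too few WT root libraries reached the cutoff. A call in the other direction was hardly open to them, and the counts of calls and the medians include them. Beside these falls, 13 of 13 leaf markers were higher and 6 of 8 root markers lower in f3h root, and beside the leaf calls 7 of 14 leaf markers were lower and 1 higher in f3h leaf. The part of these shifts in the members' values was not tested, and in such bulk samples fewer cells of a type and less RNA per cell cannot be told apart.

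**Figure D1:**
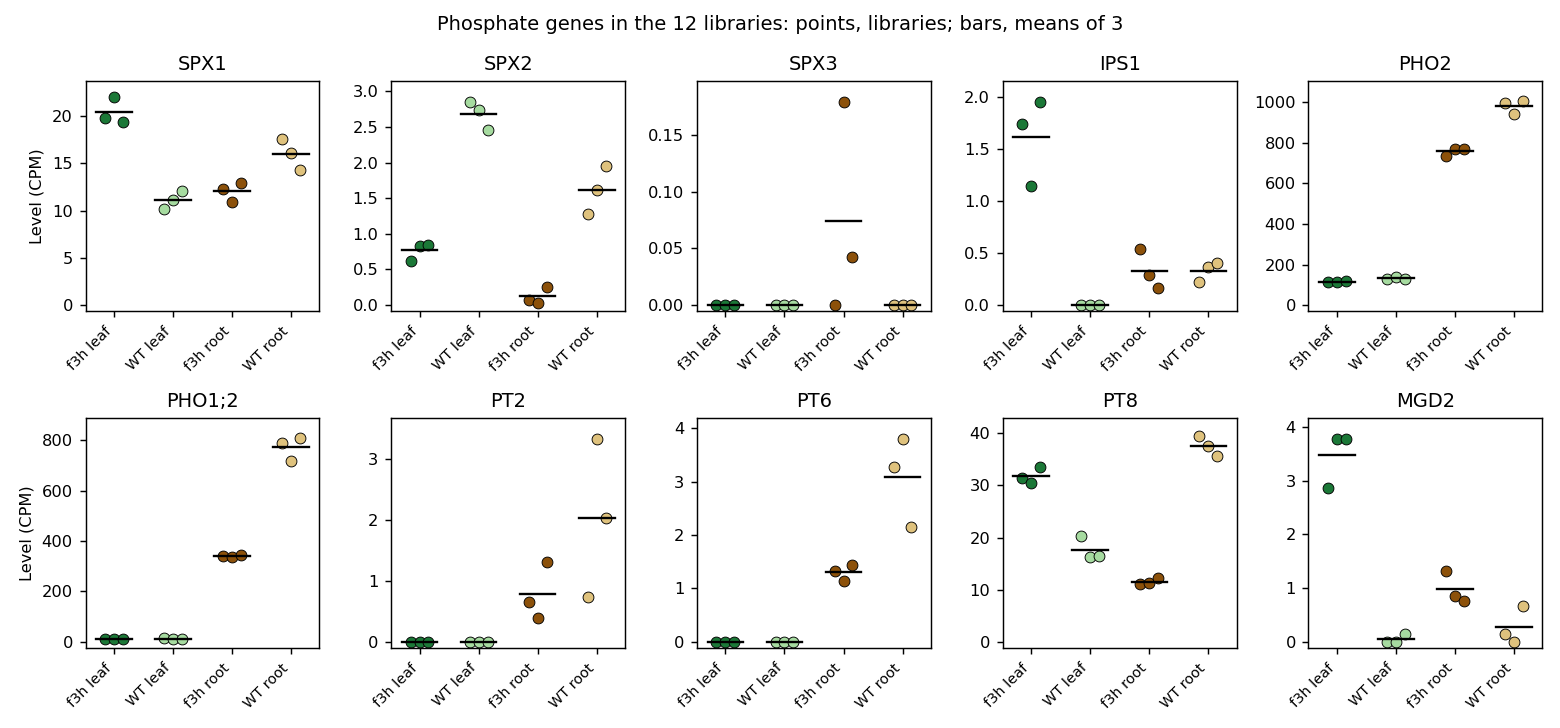
Level of each of the 10 phosphate genes in CPM (y axis, each panel with its own scale) in the 12 libraries of f3h leaf, WT leaf, f3h root and WT root; points are libraries and bars are means of 3. PT8 and SPX1 are higher in f3h than in WT in leaf and lower in f3h than in WT in root, IPS1 is at 0 in the 3 WT leaf libraries, and PT2 and PT6 are at 0 in all leaf libraries.

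SPX1 (Os06g0603600) encodes a nuclear SPX-domain protein that holds the transcription factor PHR2 from its targets when phosphate is ample, and its own gene is a target of the programme. It had 19.8, 22.0 and 19.4 CPM in the f3h leaf libraries, against 10.2, 11.1 and 12.1 CPM in the WT leaf libraries. Every f3h leaf library was above every WT leaf library. The log2 fold change was 0.90 ± 0.13 (SE; adjusted p = 0.000590).

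In root the order was turned round. SPX1 had 12.3, 10.96 and 12.9 CPM in f3h root, against 17.5, 16.1 and 14.3 CPM in WT root, without overlap. The log2 fold change was -0.44 ± 0.14 (adjusted p = 0.00936), and the call was lost without WT root replicate 1 (adjusted p = 0.0598) or without f3h root replicate 2 (adjusted p = 0.0569). The difference between the genotype effects, root minus leaf, was tested as an interaction term on all 12 libraries and came to -1.35 ± 0.18 on the log2 scale (adjusted p = 4.52e-05).

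SPX2 (Os02g0202200) is a close relative of SPX1 that also inhibits PHR2. Its level moved against that of SPX1 in leaf: it had 0.626, 0.836 and 0.846 CPM in f3h leaf, against 2.86, 2.74 and 2.45 CPM in WT leaf. The groups did not overlap, and the log2 fold change was -1.77 ± 0.30 (adjusted p = 0.00159).

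In root SPX2 was near the limit of detection in f3h, with 2, 1 and 6 counts (0.0775, 0.0358 and 0.253 CPM), against 35, 44 and 58 counts in WT root (1.28, 1.61 and 1.95 CPM). Every f3h root library lay below every WT root library, and f3h root replicate 3 held most of the f3h counts. The log2 fold change was -3.75 ± 0.70 (adjusted p = 4.96e-05), and -4.77 without f3h root replicate 3. SPX2 thus fell in both organs, and the interaction, -1.99 ± 0.67 (adjusted p = 0.0333), was lost in 8 of the 12 fits that left out 1 library: without replicates 2 or 3 of WT leaf, f3h leaf or WT root, or replicates 1 or 2 of f3h root, with adjusted p up to 0.101. Without f3h root replicate 3 it was -2.99.

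SPX3 (Os10g0392600), a further SPX protein that represses the starvation response, had no counts in f3h leaf, WT leaf or WT root. It had 0, 5 and 1 counts in the f3h root libraries. It passed the count filter in no comparison and was not tested; with no read in a whole group, a level of up to 0.0281 CPM in f3h leaf, 0.0300 CPM in WT leaf and 0.0355 CPM in WT root is still possible.

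IPS1 (Os03g0146800) is transcribed into a noncoding RNA; its counterpart in Arabidopsis binds the microRNA that otherwise cleaves PHO2 transcripts, and it is widely used as a marker of phosphate starvation. It had 64, 37 and 74 counts in f3h leaf (1.74, 1.15 and 1.96 CPM) and no count in any WT leaf library. All 3 f3h leaf libraries were thus above a group with no reads, and the level was at least 54.6-fold higher in f3h leaf, taking 3 counts over the WT leaf group as the floor (adjusted p = 0.000341).

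In root IPS1 was detected in both genotypes, with 0.543, 0.287 and 0.168 CPM in f3h root, against 0.219, 0.366 and 0.404 CPM in WT root. The groups overlapped, with means of 0.333 ± 0.191 CPM in f3h root and 0.330 ± 0.0979 CPM in WT root, and the log2 fold change was -0.01 ± 0.78 (adjusted p = 0.990). The f3h root libraries held 26 counts in all and the WT root libraries 28. At this depth a change well beyond this standard error could also go uncalled, as MGD2 in root did at 1.77 ± 0.77. The genotype effect was lower in root than in leaf (interaction adjusted p = 0.000183).

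PHO2 (Os05g0557700), the ubiquitin-conjugating enzyme, had 113, 111 and 121 CPM in f3h leaf, against 127, 138 and 130 CPM in WT leaf. The libraries did not overlap, yet the difference was small, with a log2 fold change of -0.17 ± 0.08 (adjusted p = 0.141). Without WT leaf replicate 1, the library that stood apart, it was -0.19 and was called lower (adjusted p = 0.00443).

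In root PHO2 fell to 737, 771 and 769 CPM in f3h, against 999, 945 and 1008 CPM in WT. No f3h root library reached the lowest WT root library, and the log2 fold change was -0.40 ± 0.03 (adjusted p = 4.93e-11). The effects in root and in leaf were not called different, with an interaction of -0.24 ± 0.09 (adjusted p = 0.0590), which passed the threshold without WT leaf replicate 1 (adjusted p = 0.0174) or replicate 2 (adjusted p = 0.0401), and also with RLE scaling (0.0471), limma voom (0.0169) and DESeq2 (0.00461).

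PHO1;2 (Os02g0809800) carries phosphate out of root cells towards the xylem, the step that loads phosphate for the shoot. In leaf it had 10.99, 12.5 and 10.8 CPM in f3h, against 13.7, 9.37 and 12.2 CPM in WT. The groups overlapped, and the log2 fold change was -0.01 ± 0.17 (adjusted p = 0.974).

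In root PHO1;2 had 339, 335 and 344 CPM in f3h, against 790, 720 and 807 CPM in WT. The f3h libraries lay close together and far below all WT libraries. The log2 fold change was -1.22 ± 0.04 (adjusted p = 1.26e-20), and the interaction was -1.21 ± 0.16 (adjusted p = 3.34e-05).

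PT8 (Os10g0444700) is a high-affinity phosphate importer of the PHT1 family that is active in both roots and shoots. In leaf it had 31.4, 30.5 and 33.6 CPM in f3h, against 20.3, 16.3 and 16.5 CPM in WT. All f3h libraries were above all WT libraries, with a log2 fold change of 0.88 ± 0.12 (adjusted p = 0.000416).

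In root PT8 had 11.1, 11.2 and 12.3 CPM in f3h, against 39.5, 37.5 and 35.7 CPM in WT. The f3h root libraries were below all others of the series, and the log2 fold change was -1.73 ± 0.11 (adjusted p = 4.60e-14). PT8 had the interaction with the smallest p of the 10 genes, -2.62 ± 0.15 (adjusted p = 7.53e-09).

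PT6 (Os08g0564000), a high-affinity importer that takes part in uptake by the root, had no count in any of the 6 leaf libraries. In root it had 1.32, 1.15 and 1.43 CPM in f3h (34, 32 and 34 counts), against 3.28, 3.81 and 2.16 CPM in WT (90, 104 and 64 counts). The groups did not overlap, and the log2 fold change was -1.28 ± 0.36 (adjusted p = 0.00386); in the fit of all 12 libraries the adjusted p was 0.0503.

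PT2 (Os03g0150800), a low-affinity transporter of the same family that moves phosphate within the plant, was likewise at 0 counts in all leaf libraries. It had 0.659, 0.394 and 1.31 CPM in f3h root (17, 11 and 31 counts), against 0.729, 3.33 and 2.02 CPM in WT root (20, 91 and 60 counts). WT root replicate 1 was below f3h root replicate 3, so the groups overlapped. The log2 fold change of -1.41 ± 0.53 passed the threshold (adjusted p = 0.0272) but was lost without WT root replicate 2 (-0.84, adjusted p = 0.298), WT root replicate 3 (adjusted p = 0.0667), f3h root replicate 1 (adjusted p = 0.0546) or f3h root replicate 2 (adjusted p = 0.123), and also with limma voom (adjusted p = 0.0504) and in the fit of all 12 libraries (adjusted p = 0.151). Since PT2 and PT6 had no leaf counts in either genotype, no genotype effect in leaf, and hence no difference between organs, could be estimated for them.

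Members of the PHT1 family may share reads where their sequences are alike, which leaves each single value uncertain. PT1, beside PT2, was lower in f3h root too, at -0.98 ± 0.06, and unlike PT2 had counts in leaf (38.7 ± 3.24 CPM in f3h leaf and 90.0 ± 7.51 CPM in WT leaf). PT12, also beside PT2, had 2 counts in f3h leaf, 0 in WT leaf and f3h root, and 1 in WT root. PT3, beside PT8, had 3 counts in WT root and 0 in the other groups.

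MGD2 (Os08g0299400) makes monogalactosyldiacylglycerol, a galactolipid, and belongs to the enzymes of the lipid replacement described above. It had 2.86, 3.78 and 3.78 CPM in f3h leaf, 370 counts in all, against 0, 0 and 0.148 CPM in WT leaf, 5 counts in all. All f3h leaf libraries were far above all WT leaf libraries, and the ratio of CPM from the summed counts was 69.2 (exact 95% binomial interval 29.4 to 214; adjusted p = 0.000188). Without WT leaf replicate 3, which held all 5 WT counts, WT leaf was at 0 and the gene was still called higher (adjusted p = 8.91e-05).

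In root MGD2 had 34, 24 and 18 counts in f3h (1.32, 0.860 and 0.758 CPM), against 4, 0 and 20 counts in WT (0.146, 0 and 0.674 CPM). Each f3h root library was above each WT root library, but the WT libraries were far apart. MGD2 passed the count filter in root because of the f3h root libraries, so a call lower in f3h was hardly open to it. The log2 fold change of 1.77 ± 0.77 was not called (adjusted p = 0.0565), while without WT root replicate 3 it was 3.63 and was called higher (adjusted p = 0.00641); with limma voom it was called higher as well (adjusted p = 0.00951). The genotype effect was lower in root than in leaf (interaction adjusted p = 0.0209), a call that was lost without WT root replicate 3 (adjusted p = 0.274).

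**Figure D2:**
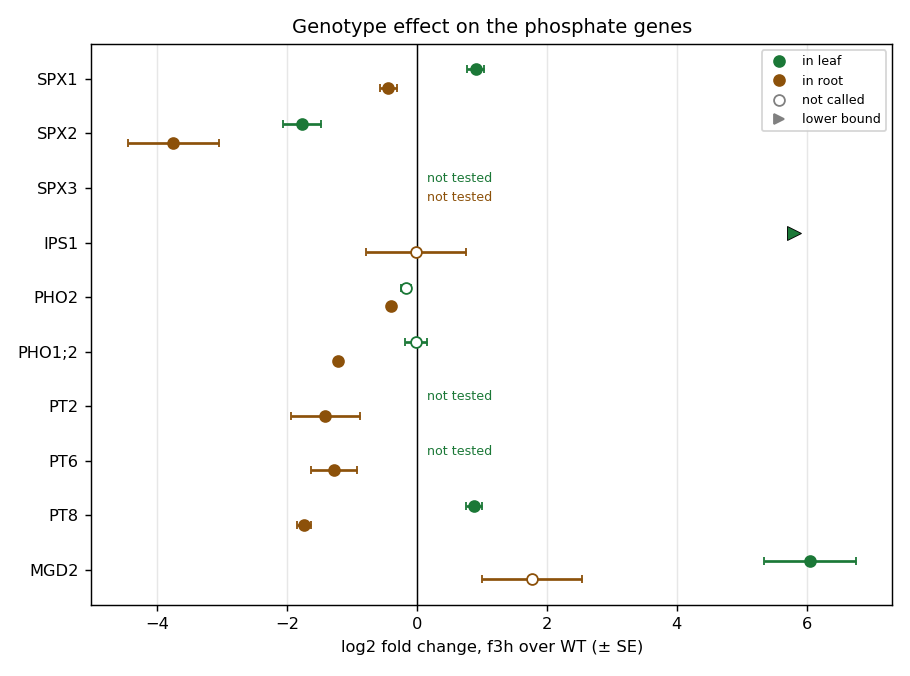
Log2 fold change of f3h over WT (x axis) with its standard error for each gene, in leaf and in root; open circles were not called, triangles mark a lower bound where the WT group was at 0 counts. SPX1 and PT8 lie to the right of 0 in leaf and to the left in root, and SPX2 lies to the left in both.

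Set side by side, the 7 genes tested in both organs fell into 4 patterns of calls. Over all genes tested, 36.5% were called in leaf and 50.3% in root. The share of all genes in each pattern was not counted, so the patterns are not shown to be particular to the members. SPX1 and PT8 were higher in f3h leaf and lower in f3h root. IPS1 and MGD2 were higher in f3h leaf and not called in root. PHO2 and PHO1;2 were lower in f3h root and not called in leaf. SPX2 was lower in f3h in both organs. Of the other 3, PT2 and PT6 were lower in f3h root and not tested in leaf, and SPX3 was tested in neither. The interaction itself was called for 6 of the 9 genes tested, SPX1, SPX2, IPS1, PHO1;2, PT8 and MGD2, all with a lower effect in root than in leaf. Of the rest, PHO2 was not called, and PT2 and PT6 had no leaf counts, so the test could not call them. Over all 26328 genes tested, 33.4% were called, 16.0% higher and 17.4% lower. Leaf marker genes had the opposite difference, with 13 of 14 called higher and none lower in the same test.

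The level of leaf transcripts in the root libraries was also set against the members. In f3h the summed leaf markers reached 0.257% of their leaf level in root, against 0.0232% in WT. At 0.257% of its f3h leaf level, SPX1 would have 0.0524 CPM in root, where its measured f3h root mean was 12.1 CPM. The same share of the f3h leaf level is 0.0817 CPM for PT8, 0.00891 CPM for MGD2 and 0.00415 CPM for IPS1, where the f3h root means were 11.5, 0.978 and 0.333 CPM. These levels are only set side by side, and the part of leaf transcripts in the root values was not tested.

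**Figure D3:**
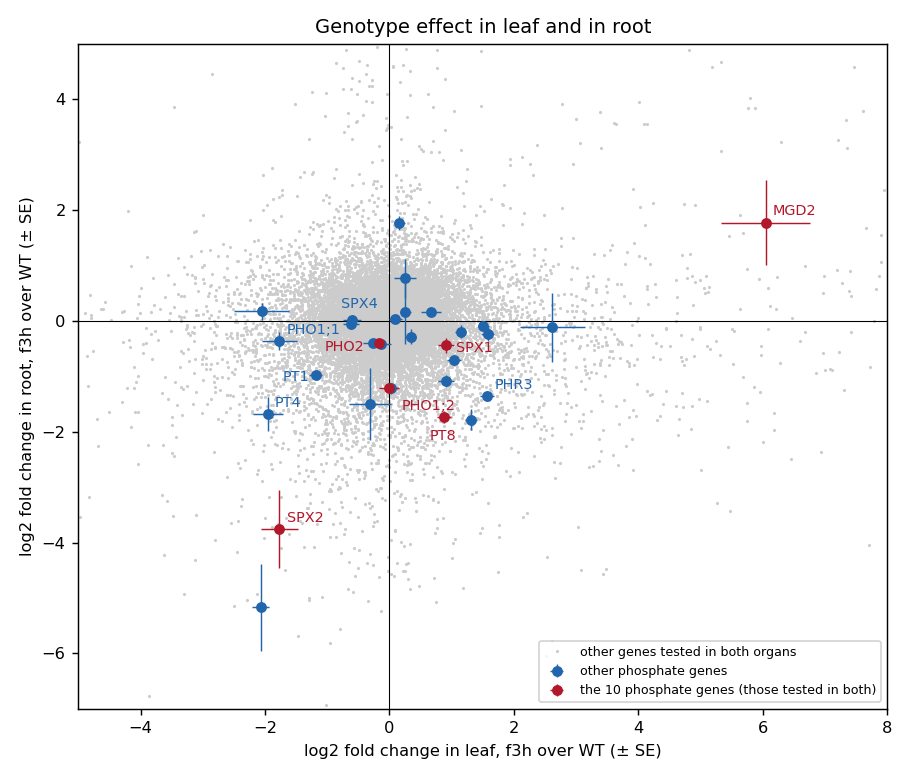
Log2 fold change of f3h over WT in leaf (x axis) and in root (y axis) for the 20896 genes tested in both organs; red points are members without a group at 0 counts, blue points are other phosphate genes, lines are standard errors, and 113 genes lie outside the frame. PT8, SPX1 and PHR3 lie at the lower right, SPX2, PT1 and PT4 at the lower left, and MGD2 at the upper right.

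The organs were compared within each genotype, and a call here also needed a log2 fold change of 1 or more in size. On these fits, which use TMM scaling, root against leaf differences come out lower than ratios of CPM by 0.66 on the log2 scale in f3h and by 0.57 in WT, so fitted values are used. In f3h, 4 of the 9 genes tested were higher in root and 5 lower; over all 24822 genes tested, 52.8% were called, 28.8% higher and 24.0% lower. In WT, 4 of the 7 genes tested were higher in root and 1 lower; over all 25229 genes tested, 52.8% were called, 29.9% higher and 22.9% lower. In both genotypes the 4 higher in root were PHO2, PHO1;2, PT2 and PT6.

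PHO1;2 had the greatest fitted organ difference among the genes that had counts in both organs, at 4.23 ± 0.07 in f3h (adjusted p = 2.66e-17) and 5.47 ± 0.17 in WT (adjusted p = 8.63e-09), higher in root. PHO2 was higher in root by 2.06 ± 0.05 in f3h (adjusted p = 2.88e-15) and by 2.33 ± 0.09 in WT (adjusted p = 3.91e-08). Against a floor of 3 counts over the leaf group, and on the scale of the fit, PT2 was at least 17.2-fold higher in root in f3h (adjusted p = 0.000208) and at least 45.6-fold higher in WT (adjusted p = 0.000798). PT6 was at least 29.1-fold higher in root in f3h (adjusted p = 1.56e-05) and at least 68.8-fold higher in WT (adjusted p = 6.41e-05). All 4 of these genes were thus called higher in root in each genotype. PT2 and PT6, without leaf counts, passed the count filter through root alone, so higher in root was the only call open to them.

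SPX1 and PT8 were lower in root in f3h, at -1.42 ± 0.12 (adjusted p = 1.91e-08) for SPX1 and at -2.12 ± 0.10 (adjusted p = 1.34e-11) for PT8. In WT the same comparison gave -0.04 ± 0.15 for SPX1 (adjusted p = 0.807) and 0.52 ± 0.13 for PT8 (adjusted p = 0.00450, under the fold limit), so neither was called. SPX2 was lower in root in f3h, at -3.31 ± 0.69 (adjusted p = 0.000423; -4.31 without f3h root replicate 3), and in WT, at -1.29 ± 0.29 (adjusted p = 0.00322). MGD2 and IPS1 were lower in root in f3h, at -2.48 ± 0.33 (adjusted p = 6.16e-06) for MGD2 and at -2.91 ± 0.52 (adjusted p = 9.90e-05) for IPS1. Neither passed the count filter in WT, where IPS1 had 28 counts in root against 0 in leaf, at least 7.47-fold higher on the scale of the fit. The interaction values above are also the test of these genotype differences between organs, since root minus leaf in f3h less that in WT is the same contrast. In f3h, SPX2 and IPS1 passed the count filter through leaf alone, so a call higher in root was hardly open to them.

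**Figure D4:**
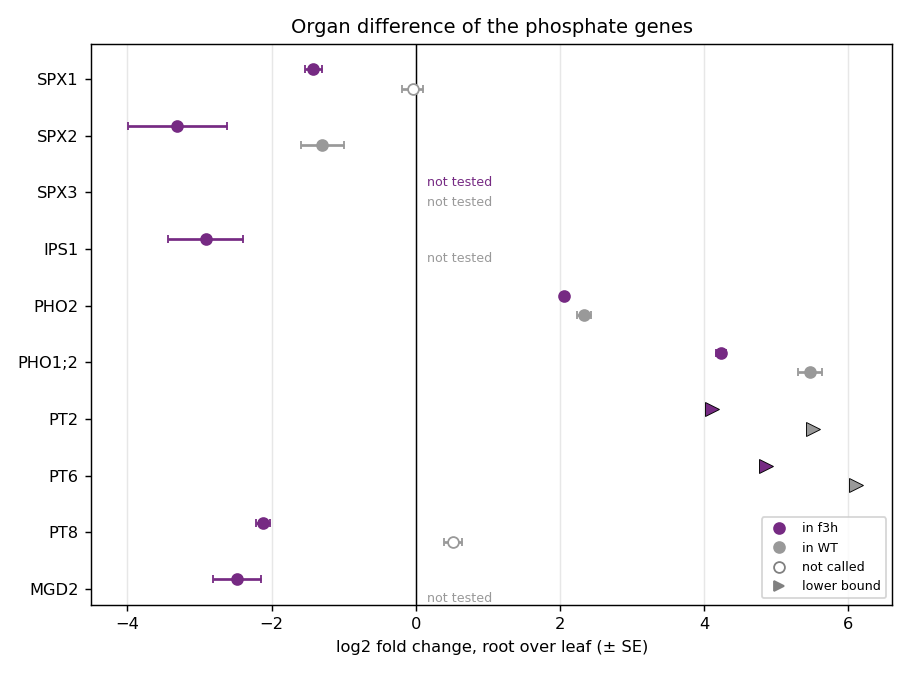
Log2 fold change of root over leaf (x axis) with its standard error for each gene, in f3h and in WT; open circles were not called, triangles mark lower bounds where the leaf group was at 0 counts. PHO2, PHO1;2, PT2 and PT6 lie to the right in both genotypes, and SPX1 and PT8 lie at -1.42 and -2.12 in f3h and at -0.04 and 0.52 in WT.

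Ordered by mean CPM over the 4 groups, no 2 neighbouring groups of SPX2, PHO2 or PT8 overlapped. The share of all genes without such overlap was not counted, so this is not shown to be particular to them. SPX2 ran from WT leaf through WT root and f3h leaf to f3h root, and PHO2 from WT root through f3h root and WT leaf to f3h leaf. PT8 ran from WT root through f3h leaf and WT leaf to f3h root. SPX1 ran from f3h leaf through WT root and f3h root to WT leaf, and f3h root and WT leaf overlapped. PHO1;2 followed the order of PHO2, with both leaf groups overlapping. MGD2 ran from f3h leaf through f3h root and WT root to WT leaf, where WT root and WT leaf overlapped. IPS1 ran from f3h leaf to f3h root and WT root, which overlapped, and to WT leaf. The places of root groups against leaf groups are on the CPM scale and depend on the scaling given above where the gap is small. This holds for WT root against f3h leaf in PT8, and for WT root and f3h root against WT leaf in SPX1. In the fits, PT8 against WT leaf was at 0.88 in f3h leaf and at 0.52 in WT root. SPX1 against WT leaf was at 0.90 in f3h leaf and at -0.04 in WT root. In f3h root SPX1 was at -1.42 against f3h leaf, so its CPM order is not that of the fits.

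Likeness of pattern was measured over the 4 groups, as the root mean square difference of centred group means of log2 CPM, among 36 candidates of the members and the other phosphate genes. The candidate most like IPS1 was MGD2, at 0.831, and 63 of all 26327 genes lay closer. The candidates most like PT2 were PT6, at 0.396, and PHO1;2, at 0.492, with 324 and 577 genes closer. Those most like SPX1 were the loci Os06g0129400 and Os07g0187700, whose names the reference does not give, at 0.243 and 0.325, with 347 and 1034 genes closer. The second nearest to IPS1 was Os06g0143700, at 0.899, with 76 genes closer.

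Another 36 phosphate genes were listed around the members: PHR regulators, other SPX genes, vacuolar transporters, PHT1 and PHO1 relatives, lipid enzymes and phosphatases. In leaf 12 of the 26 tested were higher in f3h and 7 lower (36.5% of all genes called), with a median log2 fold change of 0.20 against -0.02 over all genes. In root 2 of the 27 tested were higher in f3h and 10 lower, a smaller share than the 50.3% of all genes called, with a median of -0.24 against 0.01 over all genes. In the interaction 5 of the 28 tested were higher and 14 lower (33.4% of all genes called). As with SPX1 and PT8, 4 were higher in f3h leaf and lower in f3h root, 3 were lower in both and 1 was higher in both. The share of all genes with each of these pairs of calls was not counted.

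PHR3 (Os02g0139000), a transcription factor that drives the starvation programme together with PHR1 and PHR2, had 44.1, 36.5 and 40.3 CPM in f3h leaf, against 13.5, 13.4 and 14.7 CPM in WT leaf. In root it had 23.4, 21.9 and 20.9 CPM in f3h, against 55.7, 47.6 and 62.2 CPM in WT. It was thus higher in f3h leaf and lower in f3h root with no overlap in either, at 1.57 ± 0.11 in leaf (adjusted p = 9.91e-06) and -1.35 ± 0.10 in root (adjusted p = 8.59e-13), with an interaction of -2.93 ± 0.16 (adjusted p = 4.12e-09). PHR1 was not called in leaf, at -0.14 ± 0.17 (adjusted p = 0.551), and was lower in f3h root, at -0.41 ± 0.06 (adjusted p = 2.15e-06). PHR2, the main activator in rice, was called in neither, at 0.10 ± 0.10 in leaf (adjusted p = 0.492) and 0.03 ± 0.07 in root (adjusted p = 0.688).

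PT1 (Os03g0150600), a PHT1 importer next to PT2 on the chromosome, was lower in f3h in both organs. It averaged 38.7 ± 3.24 CPM in f3h leaf and 90.0 ± 7.51 CPM in WT leaf. In root the averages were 84.3 ± 3.28 CPM in f3h root and 162.8 ± 4.62 CPM in WT root. The log2 fold changes were -1.19 ± 0.11 in leaf (adjusted p = 4.32e-05) and -0.98 ± 0.06 in root (adjusted p = 5.04e-15), and the interaction of 0.20 ± 0.13 was not called (adjusted p = 0.248), unlike that of PT8. PT4, another PHT1 importer, was likewise lower in f3h in leaf, at -1.95 ± 0.24 (adjusted p = 0.000238), and in root, at -1.68 ± 0.31 (adjusted p = 4.93e-05). PT5 had 56 counts in f3h leaf and 2 in WT leaf, a CPM ratio of 26.2 (exact 95% binomial interval 6.92 to 222; adjusted p = 0.00667). In root PT5 had 2 counts in f3h and 18 in WT and was not tested. So the PHT1 genes called in leaf moved in different directions, with PT8 higher and PT1 and PT4 lower in f3h. PT5 was also called higher, but it passed the count filter through f3h leaf alone. A call lower in f3h leaf was hardly open to PT5.

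Of the other exporters and sensors, PHO1;1 (Os01g0110100), a relative of PHO1;2, fell to 4.45 ± 1.77 CPM in f3h leaf, against 15.5 ± 2.23 CPM in WT leaf (-1.77 ± 0.28, adjusted p = 0.00119). In root it was not called, at -0.37 ± 0.17 (adjusted p = 0.0663), and the interaction was 1.40 ± 0.36 (adjusted p = 0.00727). PHO1;2 had the opposite split, with its call in root. SPX4, an SPX protein that holds PHR2 in the cytoplasm, was lower in f3h leaf, at -0.60 ± 0.14 (adjusted p = 0.0100), and was not called in root, at 0.01 ± 0.10 (adjusted p = 0.944). SPX6 was not called in leaf (-0.31 ± 0.34, adjusted p = 0.501) or in root (-1.50 ± 0.65, adjusted p = 0.0576). SPX5 had too few counts for a test in leaf and was not called in root (0.97 ± 0.45, adjusted p = 0.0763).

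Between organs, PHR3 was lower in root in f3h, at -1.53 ± 0.09 (adjusted p = 4.38e-10), and higher in root in WT, at 1.42 ± 0.13 (adjusted p = 8.87e-06). PHO1;3 was lower in root in both, at -2.54 ± 0.20 in f3h (adjusted p = 1.55e-08) and at -3.02 ± 0.26 in WT (adjusted p = 7.29e-06), the reverse of PHO1;2. Of the 27 other phosphate genes tested between organs in each genotype, 3 were higher and 16 lower in root in f3h, and 5 were higher and 9 lower in root in WT, where 52.8% of all genes were called in each genotype.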

How the data were processed

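The deposited values are whole-number read counts for each gene, which the authors left unscaled. The tools in use were HISAT2, fastp, featureCounts and DESeq, per the submitters' processing notes. Their versions, the build, the gene annotation and whether counting used strand are not given in the sources used, so a gene and an overlapping or antisense partner (as could bear on IPS1) may not be told apart. The deposited table covers 37960 genes. Names were checked against a RefSeq gene table (assembly ASM3414082v1), and no coordinates or sequences are printed.

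The test was that of edgeR 4.0.16 under R 4.3.3 (filterByExpr, TMM scaling, quasi-likelihood test, Benjamini-Hochberg adjustment over all genes tested, threshold 0.05, and an absolute log2 limit of 1 between organs); all adjusted p-values are from it unless another tool is named. Genotypes were compared on the 6 libraries of an organ, organs on the 6 libraries of a genotype, and their difference as an interaction on all 12. Standard errors were derived from the F statistic. With 3 libraries a group, the smallest two-sided p of an exact permutation test is 0.1, so none was used. Floors of 3 counts and exact 95% binomial intervals cover counting error only, since reads without molecular identifiers are not independent molecules. Fitted fold changes of genes with a group at 0 counts are not printed. The procedure was run on simulated counts in which a small set of genes with a mean of at least 1 CPM was changed. All other genes had the same mean level in every group. Those counts do not cover changes in genes under that mean, groups at 0 counts or the wide differences between organs.

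The members and lists were chosen with earlier results of these data known. All 10 members are given in every comparison. Of the other phosphate genes, those with a checked name and the smallest p in each comparison (at most 6) and the neighbours of PT2 and PT8 are named, and the rest are counted; PHR1, PHR2 and SPX5 are also given where the rule did not take them. Alternatives were RLE and upper-quartile scaling, no count filter, DESeq2 1.42.0, limma 3.58.1 voom, one fit of all 12 libraries, the replicate number as a block, and leaving out each library. For the interaction the block was the replicate number within each organ, so leaf and root libraries were not linked.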

Additional observations from a re-analysis of the deposited data

Results flagged for a closer look

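For 6 of the 9 genes tested the f3h effect differed between root and leaf by the interaction test of edgeR (quasi-likelihood, adjusted over all genes), where 33.4% of all 26328 genes tested were called. PT2 and PT6 are among the 9 but had no leaf counts, so no difference could be estimated for them. The adjusted p was 7.53e-09 for PT8, 3.34e-05 for PHO1;2, 4.52e-05 for SPX1, 0.000183 for IPS1, 0.0209 for MGD2 and 0.0333 for SPX2. The call of SPX2 was lost in 8 of the 12 fits without 1 library (adjusted p up to 0.101), and that of MGD2 without WT root replicate 3 (adjusted p = 0.274). The sign of the fitted effect was opposite between organs, with a call in each, for SPX1 (higher in f3h leaf in 3 of 3 libraries, lower in f3h root in 3 of 3) and PT8 (the same). The root call of SPX1 was lost in some fits without 1 library (adjusted p up to 0.0598 by the edgeR test). SPX2 was lower in f3h in both organs, and the effects of PHO1;2, IPS1 and MGD2 were called in 1 organ each. With 3 libraries a group, the levels of single genes were not screened for outlying libraries.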

How the results depend on the processing

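Of 578 refits of single members, 533 kept direction and side of the threshold, 10 passed it newly, 20 lost it and 15 changed sign. All those that changed sign belonged to effects not called in any fit: PHO1;2 in leaf (0.00745 with limma voom, 0.00799 with all 12 libraries, and -0.15 to 0.12 when single libraries were left out), IPS1 in root (0.00784 with upper-quartile scaling, and -0.54 to 0.29 when single libraries were left out) and SPX1 between organs in WT (0.17 with upper-quartile scaling, and -0.132 to 0.0199 when single libraries were left out). The number of members called higher in f3h root, 0 in the report, was 1 with no count filter and 1 with limma voom (MGD2 in each), and ranged from 0 to 1 when single libraries were left out. The number called lower in f3h leaf ranged from 1 to 2, with PHO2 added without WT leaf replicate 1. The cause was not tested. Members called lower numbered 5 to 7 in root and 4 to 7 in the interaction. All-gene counts in leaf ranged from 2878 to 5721 higher and from 2891 to 5423 lower, both highest without WT leaf replicate 1. Upper-quartile scaling moved the median of all genes between organs by 0.29 in f3h and 0.22 in WT, and the share of calls that were higher in root to 62.2% in f3h (54.6% in the report) and 62.3% in WT (56.6%).

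Same-numbered libraries did not deviate together (correlations of deviations from -0.0345 to 0.0472, with 6 of 12 best with their own number), so the numbers are not taken as pairs. With the replicate block, members called numbered 4 higher and 1 lower in leaf, 1 higher (MGD2) and 6 lower (PT2 lost, adjusted p = 0.0583) in root, and 0 higher and 5 lower in the interaction (MGD2 lost, adjusted p = 0.0679); PHO1;2 in leaf was 0.00312. Low counts limit SPX3 and the root values of IPS1 and SPX2; for MGD2 and PT2 in root, the WT libraries also lay far apart (4, 0 and 20 counts for MGD2; 20, 91 and 60 counts for PT2).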
